A study of Eriocheir sinensis with 6 samples.

Results

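In muscle of Eriocheir sinensis, the Chinese mitten crab, 34 predicted genes had low transcript levels before the molt and were within the 500 most abundant genes after it. They were chosen by their level alone. Each was below 20 FPKM in every pre-molt library and at 300 FPKM or more in every post-molt library, where FPKM is the deposited number of sequenced fragments scaled by gene length and by a library size. The 34 genes were found among 13853 predicted genes outside 5 chromosomes (CM024112.1, CM024108.1, CM024135.1, CM024166.1 and CM024162.1), of 18729 genes listed in all. On those 5 chromosomes another 28 predicted genes met both thresholds. Because the stage difference itself chose the members, their difference between the stages is given as a description, and no test supports it.

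RNA-seq was performed on muscle of healthy, untreated juvenile crabs in 2 stages of the molting cycle, with 3 post-molt and 3 pre-molt libraries. Each library came from 1 crab, and the crabs of both stages were of 1 batch, per the study. The animals weighed 8.41 ± 1.47 g on average and were held at 20 °C under natural light. The sources used here give neither exact age nor strain. The fragments recovered per library numbered 4168751 to 5117246 after the molt and 5810064 to 6768306 before it, with non-overlapping ranges (two-sided exact permutation p = 0.1, the smallest that 3 against 3 libraries allow). The deposited FPKM used a library size of 0.280 to 0.344 of these totals for the post-molt and 0.633 to 0.819 for the pre-molt libraries, so FPKM values of the stages are on a scale set by the authors. Values rescaled to the same sum in every library (TPM) are therefore given where they matter.

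A crab grows only by molting. Before the molt, steroid hormones (ecdysteroids) rise and a new cuticle forms beneath the old shell. After the shell is shed, the animal swells with water, the new cuticle hardens, and muscle grows to fill the larger body. In some land crabs, claw muscle is known to thin before the molt so that the limb can be drawn out of the old shell. The study, which describes muscle dissected from walking legs, cites work that reports muscle atrophy before the molt and recovery after it. The IDs of the members come from automatic gene prediction (the prefix evm.TU) and carry a chromosome and an order number, but no gene name. The files give no function for any of them, so what their proteins do is not described here. The same lack of names meant that the tissue label was not checked against muscle markers. Muscle as dissected can hold other cells, and in bulk RNA more cells of a type and more RNA per cell cannot be told apart.

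The mean levels of the members before the molt were low but above 0. Whether so few fragments show transcripts present in pre-molt muscle was not tested. Fragments were recovered from every pre-molt library for 29 of the 34 members, and the remaining 5 were at 0 in at least 1 pre-molt library, 2 of them in 2 libraries. None was without fragments in the whole pre-molt group. The mean pre-molt level was 0.228 to 17.9 FPKM, with a median of 2.70 FPKM. It was under 5 FPKM for 24 members and reached 10 FPKM in 4. The mean post-molt level was 412 to 78078 FPKM, with a median of 1902 FPKM, and reached 1000 FPKM in 23 members and 10000 FPKM in 6. All 34 lay within the 500 most abundant genes of post-molt muscle by mean FPKM, of which 14 were within the first 200 and 4 within the first 50. In pre-molt muscle the best placed member ranked 2968 and the median member 9877.

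**Figure D1:**
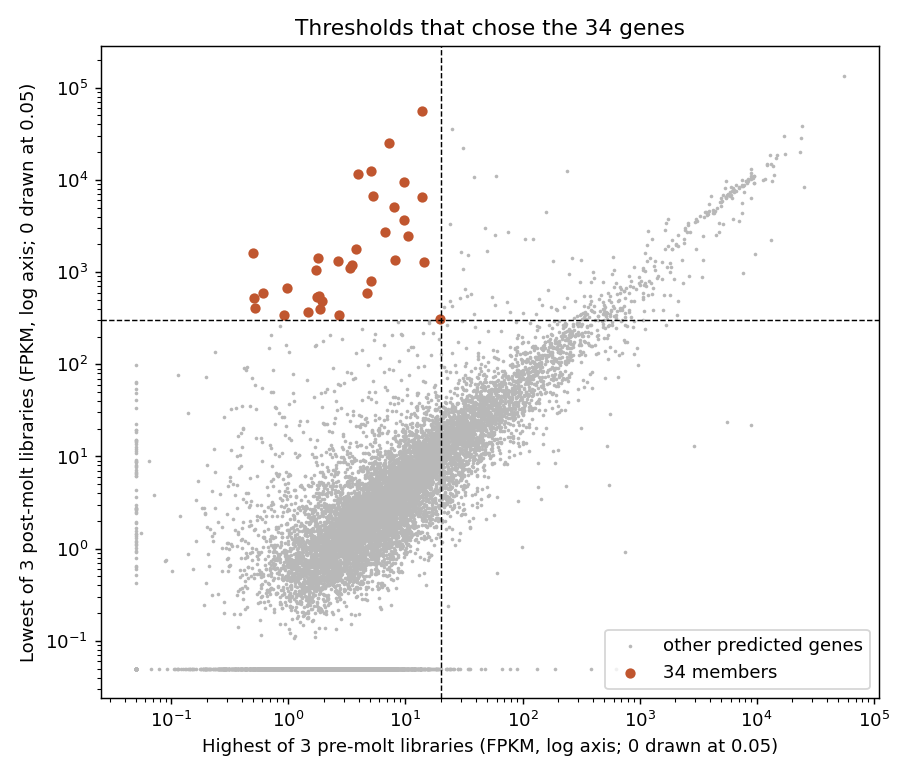
Highest pre-molt value (x axis, FPKM, log scale) against lowest post-molt value (y axis, FPKM, log scale) for 13853 predicted genes outside the 5 chromosomes, with zeros drawn at 0.05 and dashed lines at the thresholds of 20 and 300 FPKM. The 34 members fill the upper left, and 1 of them lies close to the corner of both lines.

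The ratio of mean post-molt to mean pre-molt FPKM had a median of 1052 over the members and ran from 23.0 to 9090.0. It was at least 1000 for 17 members. On the TPM scale the median was 420.5 and the range 9.45 to 3772. In the limma fit over all genes, on log2(FPKM + 1), the members had a median log2 fold change of 9.07, where the median over the 17465 genes tested was −0.09. In that fit 34 of 34 members were called higher in post-molt muscle (adjusted p up to 0.05 by the Benjamini-Hochberg method, log2 fold change from 1 upward), beside 5.93% of all genes tested. The rule used the same values and fixed this count, so it is no test of the members. Of all genes, 1.6% were called lower, so that 7.54% were called in either direction. This balance rested on the scale, since with TPM 3.44% of the 17465 genes were called higher and 33.7% lower. Post-molt values lay wholly above pre-molt values for 14.2% of all genes tested, and for every member by construction.

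The most abundant member was evm.TU.CM024156.1.378, a predicted gene of 984 bases on chromosome CM024156.1. It measured 56447, 68399 and 109387 FPKM in post-molt replicates 1, 2 and 3, and 9.91, 11.3 and 14.0 FPKM in the pre-molt replicates. Replicate 3 was the highest library in both stages. The gene was the third most abundant of all listed genes in post-molt muscle, and 153 fragments in all stood behind its pre-molt level. The mean ratio was 6655, and the counting error of the pre-molt fragments alone gives it a 95% interval of 5680.4 to 7849.8. The interval does not cover the scale of the libraries, and with TPM the ratio was 2532.

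The next 3 members had the same order of post-molt crabs, with short gene models of 474 to 726 bases. The second, evm.TU.CM024158.1.110, measured 25384, 29812 and 41657 FPKM after the molt against 3.51, 5.48 and 7.28 FPKM in pre-molt libraries. The third, evm.TU.CM024138.1.146, measured 12555, 19185 and 34969.7 FPKM after the molt against 2.81, 3.44 and 5.11 FPKM in pre-molt libraries. The fourth, evm.TU.CM024158.1.108, measured 11596, 16963 and 27324 FPKM after the molt against 3.97, 3.37 and 3.06 FPKM in pre-molt libraries. In each of these 4 genes post-molt replicate 3 was the highest library and, on the FPKM scale, replicate 1 the lowest, with a range of 1.64-fold to 2.79-fold between crabs. On the TPM scale replicate 2 was the lowest for evm.TU.CM024156.1.378 and evm.TU.CM024158.1.110. The pre-molt levels of the 4 genes rested on 6 to 68 fragments per library. Together they held 65.1% of the summed mean FPKM of the 34 members, while the lower 17 members held 7.05%.

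The following members had other orders of crabs. Expression of evm.TU.CM024154.1.291 was 15147, 10413 and 9400.4 FPKM after the molt against 5.81, 5.65 and 9.80 FPKM in pre-molt libraries. The longer model evm.TU.CM024141.1.345, of 3089 bases, was at 13409, 13009.6 and 6763 FPKM after the molt against 3.52, 5.19 and 5.30 FPKM in pre-molt libraries. For evm.TU.CM024121.1.260 the post-molt values were 7235, 9756 and 6561 FPKM and the pre-molt values 6.61, 13.9 and 11.2 FPKM. In these 3 genes post-molt replicate 3 was the lowest post-molt library.

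A joined model, evm.TU.CM024154.1.288_evm.TU.CM024154.1.289, was the steadiest of all members among post-molt crabs, at 5154, 5591 and 5039 FPKM, against 4.39, 7.43 and 8.003 FPKM in pre-molt. On CM024107.1, evm.TU.CM024107.1.208 measured 6523, 5807 and 2437 FPKM after the molt against 8.10, 7.98 and 10.4 FPKM in pre-molt libraries. On the same chromosome, evm.TU.CM024107.1.249 measured 6616, 4969 and 2695 FPKM after the molt against 2.15, 3.43 and 6.67 FPKM in pre-molt libraries. These 2 genes shared their order of crabs in post-molt, with replicate 1 highest and replicate 3 lowest.

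Of the next members, evm.TU.CM024153.1.208 was at 4789, 5390.5 and 3709 FPKM after the molt against 6.94, 6.04 and 9.79 FPKM in pre-molt libraries. For evm.TU.CM024117.1.256 they were 3467, 3891 and 1301 FPKM after the molt against 14.5, 13.7 and 12.9 FPKM in pre-molt, the second highest pre-molt mean of the set. In evm.TU.CM024132.1.241 the post-molt values were 2784, 3701 and 1764 FPKM, and the pre-molt values of 0.275, 1.347 and 3.75 FPKM rested on 1, 4 and 15 fragments. Its pre-molt values therefore differed more between crabs than its post-molt values. The members evm.TU.CM024101.1.121 (2511, 1429 and 2519.7 FPKM after the molt, 0.484, 1.78 and 1.76 FPKM before it) and evm.TU.CM024125.1.156 were lowest in post-molt replicate 2.

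The largest ratio of means belonged to evm.TU.CM024125.1.156, at 2267, 1599 and 2351 FPKM after the molt against 0, 0.499 and 0.185 FPKM in pre-molt. The pre-molt values rested on 0, 2 and 1 fragments, so its ratio of 9090.0 has a counting interval of 3110.4 to 44078. With TPM the ratio was 3772. On the limma scale of log2(FPKM + 1), where the pseudocount shrinks such changes, its log2 fold change was 10.72 (SE 0.29), below those of the 4 most abundant members and of evm.TU.CM024141.1.345 (10.88, SE 0.34). The 5 largest limma log2 fold changes were those of the 4 most abundant members, at 12.54, 12.31, 12.08 and 11.94, and that of evm.TU.CM024141.1.345.

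**Figure D2:**
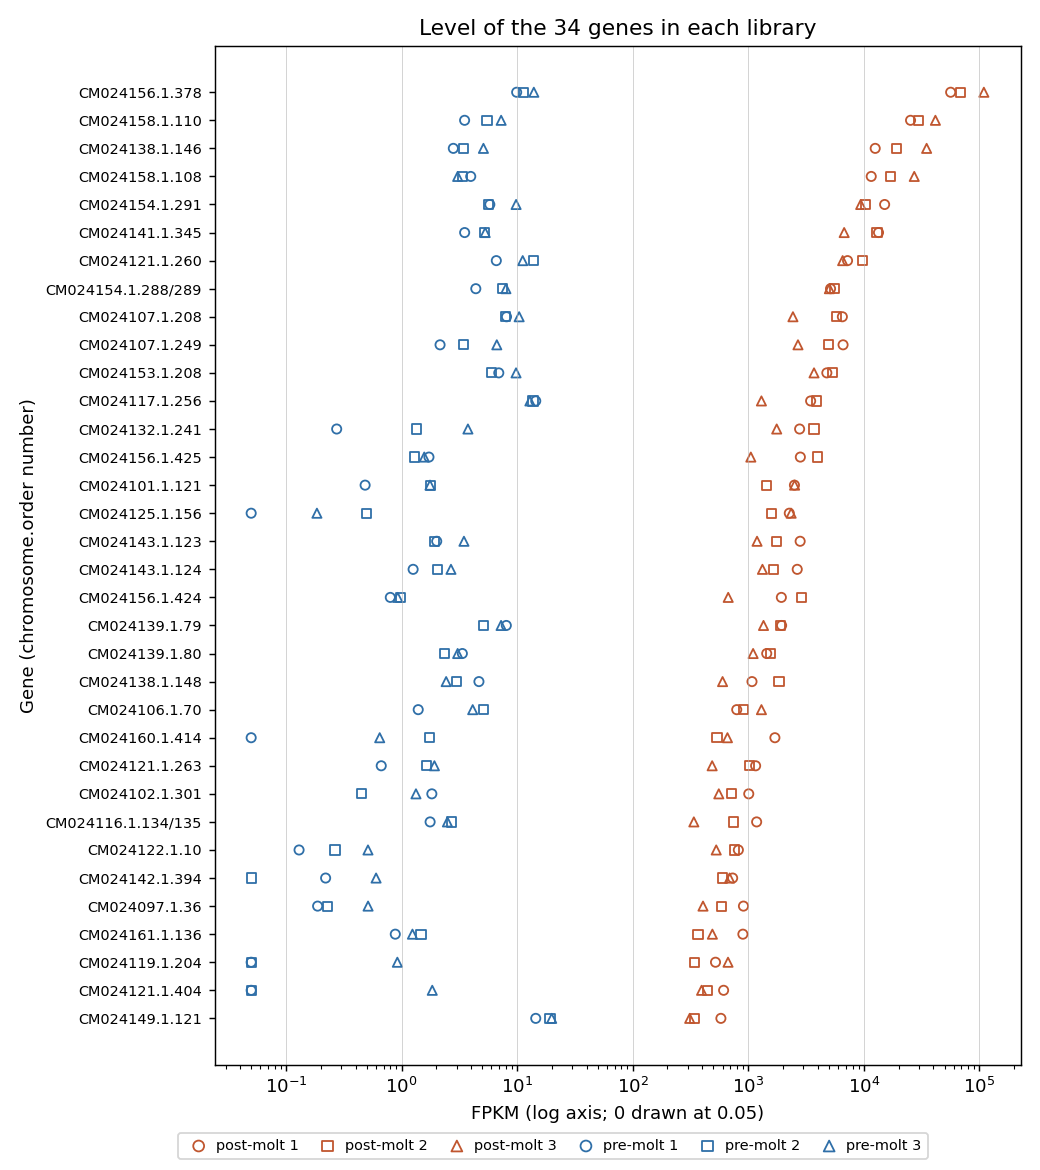
FPKM (x axis, log scale, zeros drawn at 0.05) of each of the 34 members (rows, ordered by mean post-molt FPKM) in the 3 post-molt (orange) and 3 pre-molt (blue) libraries, with the marker shape giving the replicate. The lowest post-molt value of any member is 312 FPKM and the highest pre-molt value 19.9 FPKM.

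Few pre-molt fragments stood behind several of the lower members. In 6 of the 34, fewer than 10 fragments were recovered over the 3 pre-molt libraries together. The smallest model, evm.TU.CM024121.1.404 with 219 bases, was at 612, 443 and 395 FPKM after the molt against 0, 0 and 1.84 FPKM in pre-molt, from 0, 0 and 2 fragments. The gene evm.TU.CM024119.1.204 was at 521, 340.3 and 669 FPKM after the molt against 0, 0 and 0.920 FPKM in pre-molt, from 4 fragments in replicate 3. Both are known before the molt from pre-molt replicate 3 only. Fragments of evm.TU.CM024160.1.414 numbered 0, 2 and 1 in pre-molt (0, 1.74 and 0.647 FPKM), against 1701, 537 and 661 FPKM in post-molt. Fragments of evm.TU.CM024142.1.394 numbered 1, 0 and 3 in pre-molt (0.220, 0 and 0.602 FPKM), against 733, 599 and 689.9 FPKM in post-molt. These counts fix the pre-molt level only within wide bounds, with counting intervals of the ratio of 415 to 5883 for the former and 960 to 9021 for the latter. With TPM their ratios were 535 and 891, against 1213 and 2458 with FPKM, and the latter then lies below its interval.

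The following members of lower level had no other member within 3 order numbers. At 795, 909 and 1301 FPKM after the molt against 1.39, 5.13 and 4.13 FPKM in pre-molt, evm.TU.CM024106.1.70 was 1 of the 4 genes below the leading 4 with post-molt replicate 3 highest. In evm.TU.CM024102.1.301 the values were 1010.4, 716 and 556 FPKM after the molt against 1.83, 0.448 and 1.33 FPKM in pre-molt. In evm.TU.CM024161.1.136 they were 899, 367 and 489.5 FPKM after the molt against 0.883, 1.48 and 1.24 FPKM in pre-molt. The last 2 were both highest in post-molt replicate 1. The joined model on CM024116.1 was at 1.77, 2.71 and 2.496 FPKM in pre-molt.

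The member closest to the pre-molt ceiling was also the one closest to the post-molt floor. This gene, evm.TU.CM024149.1.121, was at 580.05, 343 and 312 FPKM after the molt against 14.5, 19.3 and 19.9 FPKM in pre-molt libraries, and had the smallest ratio of the set, 23.0. The next smallest limma log2 fold changes after its 4.41 were 7.47 for evm.TU.CM024117.1.256, 7.67 for evm.TU.CM024116.1.134_evm.TU.CM024116.1.135, 7.79 for evm.TU.CM024139.1.79 and 7.86 for evm.TU.CM024106.1.70. The gap between 4.41 and 7.47 sets evm.TU.CM024149.1.121 apart from the other members.

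Genes just outside the thresholds were close in level to those just inside. With a highest pre-molt value of 21.5 FPKM, evm.TU.CM024144.1.235 missed the ceiling, at 1429.7, 1317 and 420.1 FPKM in post-molt. At 4346, 4757 and 3296 FPKM in post-molt, evm.TU.CM024165.1.453 missed it with 24.1 FPKM in pre-molt replicate 1. The third, evm.TU.CM024155.1.400, also reached 24.1 FPKM, in pre-molt replicate 3, and was at 914, 782 and 491 FPKM in post-molt. Inside the ceiling, the values nearest to it after evm.TU.CM024149.1.121 were 14.5 FPKM in evm.TU.CM024117.1.256 and 14.0 FPKM in evm.TU.CM024156.1.378.

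Below the floor, the lowest post-molt value was 294 FPKM for evm.TU.CM024149.1.175, 289 FPKM for evm.TU.CM024097.1.290 and 277 FPKM for evm.TU.CM024129.1.203. Above it, after evm.TU.CM024149.1.121, the lowest were 338 FPKM for evm.TU.CM024116.1.134_evm.TU.CM024116.1.135 and 340.3 FPKM for evm.TU.CM024119.1.204. The set is therefore a range of levels with no gap at the floor. With FPKM rescaled to TPM and the same thresholds, 19 genes met the rule, 18 of them among the 34.

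The members together held a much larger share of the transcriptome after the molt than before it, as the rule requires. They took 7.27%, 6.51% and 7.25% of all FPKM in post-molt replicates 1, 2 and 3, or 7.01% ± 0.430 (SD, n = 3). In pre-molt the shares were 0.00846%, 0.00958% and 0.0149%, or 0.0110% ± 0.00346 (SD, n = 3). A share does not depend on the scale of a library. Of the recovered fragments, the members held 8.03% (95% Wilson interval 8.01% to 8.05%), 6.99% (6.97% to 7.01%) and 7.20% (7.18% to 7.23%) in post-molt. In pre-molt they held 0.0102% (0.00945% to 0.0110%), 0.0115% (0.0106% to 0.0124%) and 0.0174% (0.0163% to 0.0184%), from 689, 667 and 1049 fragments. The intervals cover counting error only, and they did not overlap among the 3 post-molt crabs, while those of pre-molt replicates 1 and 2 did.

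The post-molt total was made up differently among the crabs. The 4 most abundant members held 3.82%, 3.93% and 5.68% of all FPKM in post-molt replicates 1, 2 and 3. The other 30 members held 3.45%, 2.59% and 1.56%. Post-molt replicate 3 was thus the highest library for the former and the lowest for the latter. The cut after the first 4 members was not planned and falls where the order of crabs changes. This contrast therefore depends in part on where the cut was placed. The gene evm.TU.CM024156.1.378 alone held 2.04%, 1.999% and 2.91% of all FPKM.

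**Figure D3:**
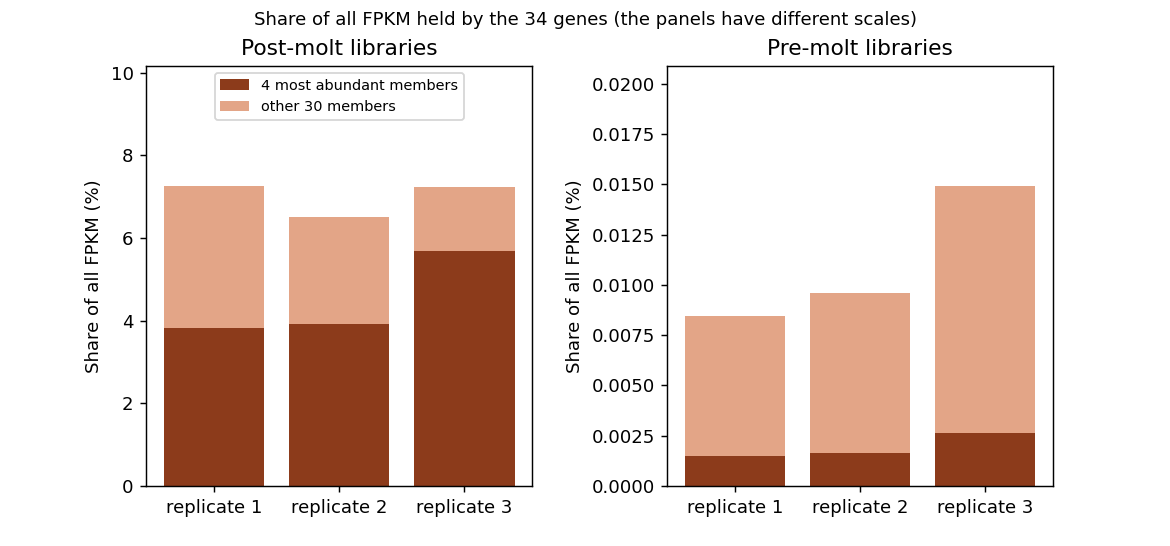
Share of all FPKM (y axis, percent) held by the 34 members in each library, split into the 4 most abundant members (dark) and the other 30 (light). Post-molt totals of 6.51% to 7.27% are made up differently in replicate 3, and the pre-molt panel has its own scale, up to 0.0149%.

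The coefficient of variation (SD over mean) among the 3 post-molt crabs had a median of 35.4% over the members and ran from 5.53% to 66.2%. Counting error alone would give a median of 1.88% at these fragment numbers. For the 309 predicted genes outside the 5 chromosomes that also met the post-molt floor but were above the pre-molt ceiling in some library, the median was 30.2%. On the TPM scale these medians were 41.6% for the members and 29.5% for the 309 genes. The medians depended on the crabs included. Without post-molt replicate 3 the FPKM medians were 23.4% for the members and 18.1% for the 309 genes. Without replicate 1 they were 27.2% and 25.9%, and without replicate 2 they were 41.3% and 34.9%. Genes are not replicates, and this difference between the sets was not tested.

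Post-molt replicate 3 was the lowest of the 3 crabs in 23 of the 34 members, on the FPKM and on the TPM scale alike. Of the 309 other genes at this level, it was lowest in 35.9% on the FPKM scale and in 46.9% on the TPM scale, against 67.6% of the members on both. Among the 30 members below the 4 most abundant, replicate 1 was highest in 17, replicate 2 in 9 and replicate 3 in 4. On the TPM scale these numbers were 24, 5 and 1. All 4 of the most abundant members were highest in replicate 3 on both scales. The most frequent order was replicate 1 over 2 over 3, in 14 members.

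The widest spread was in evm.TU.CM024160.1.414 (coefficient of variation 66.2%), where replicate 1 was 3.17 times the lowest library. It was followed by evm.TU.CM024156.1.424 at 1935, 2893 and 671 FPKM (60.8%), and its neighbour evm.TU.CM024156.1.425 at 2824, 3998 and 1053 FPKM (56.5%). The joined model evm.TU.CM024116.1.134_evm.TU.CM024116.1.135 was at 1183, 746 and 338 FPKM (55.9%), and evm.TU.CM024138.1.148 at 1078, 1847 and 599.7 FPKM (53.6%). In all but the first of these, replicate 3 was the lowest crab. The narrowest spread after the joined model on CM024154.1 (5.53%) was in evm.TU.CM024142.1.394 (10.2%), evm.TU.CM024139.1.80 (17.5%), evm.TU.CM024153.1.208 (18.4%) and evm.TU.CM024139.1.79 (19.0%).

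**Figure D4:**
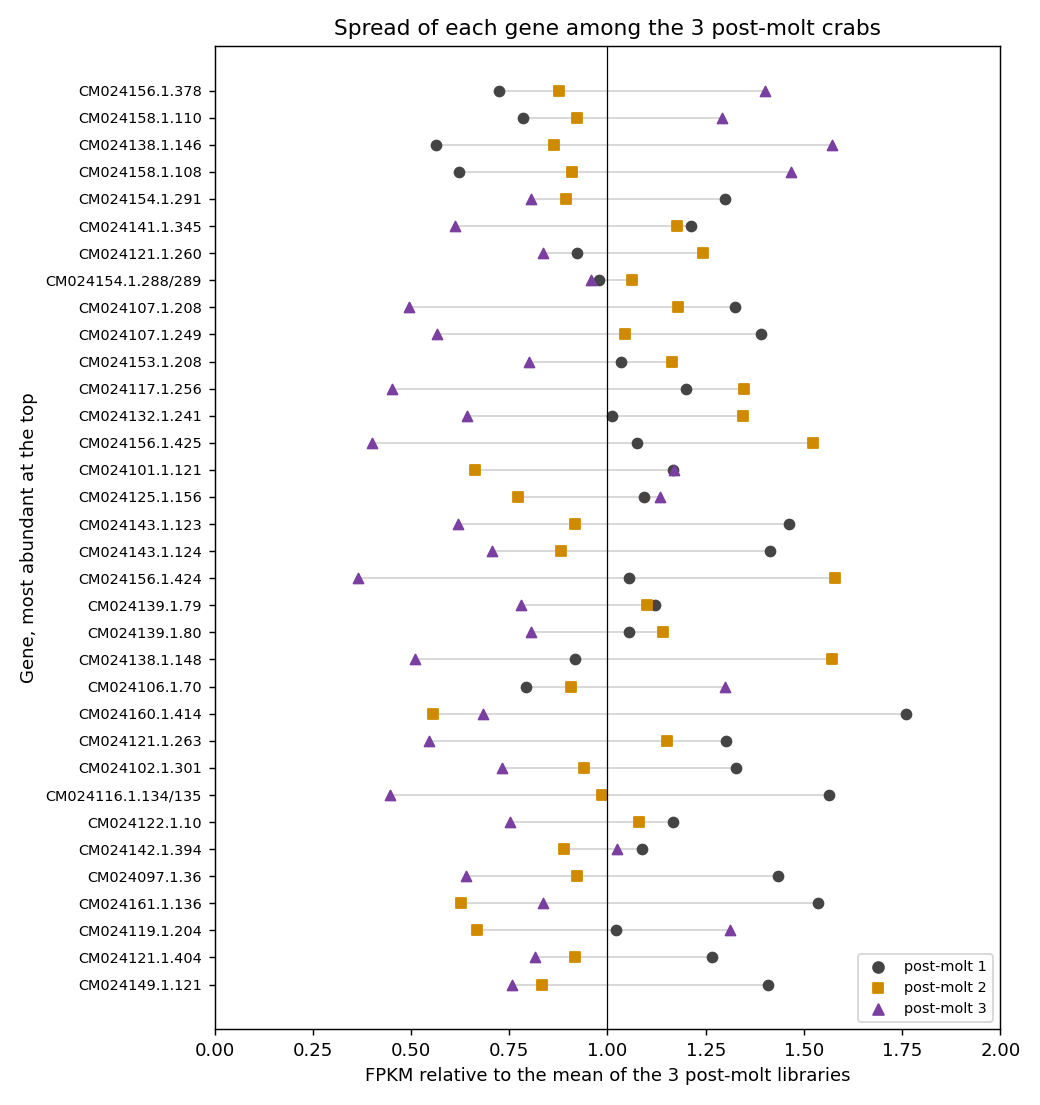
FPKM of each member in the 3 post-molt libraries, divided by the mean of the 3 (x axis), with members in rows from the most abundant at the top. Replicate 3 (triangles) is the highest crab in the upper 4 rows and the lowest crab in 23 of the 34 rows.

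Among the pre-molt crabs, replicate 3 was the highest in 19 of 34 members on the FPKM scale and in 29 on the TPM scale, or 55.9% and 85.3% of the members. Of the 309 other genes it was the highest in 6.15% with FPKM and in 29.4% with TPM, and the lowest in 83.5% and 48.5%. The 309 genes had higher pre-molt levels than the members, 230 of them at 300 FPKM or more in every library. Genes with pre-molt levels like those of the members were not compared. The median coefficient of variation of the members among pre-molt crabs was 34.6%, where counting error alone would give 28.9%. Summed over the set, the share of fragments in pre-molt replicate 3 lay outside the counting intervals of the other 2 libraries. The set would hold 38 genes without pre-molt replicate 3 and 43 without post-molt replicate 3, where the other single libraries change it to 35 or 36.

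The members lay on 24 chromosomes, of 67 named chromosomes with listed genes. On 16 of them there was 1 member, on 6 there were 2, and on CM024121.1 and CM024156.1 there were 3. The order number in an ID was taken as the order of genes along the chromosome, since gene coordinates were not used here. Consecutive numbers were carried by 3 pairs, that is by 6 of the 34 members. With numbers up to 3 apart there were 7 pairs and 14 members, and no listed predicted gene lay between the 2 members of any pair. Widening the limit to 10 added none. A listed gene at the next number, whatever its level, was present for 85.3% of the members and 86.5% of all 13853 predicted genes.

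Some pairs had matching profiles among the post-molt crabs. The consecutive genes evm.TU.CM024143.1.123 (2814, 1766 and 1192 FPKM) and evm.TU.CM024143.1.124 (2655, 1655 and 1327 FPKM) had ratios of 1.06, 1.07 and 0.898 in the 3 crabs. Between evm.TU.CM024156.1.424 and evm.TU.CM024156.1.425 the ratios were 0.685, 0.724 and 0.637. The pair evm.TU.CM024139.1.79 (1945, 1909.9 and 1356 FPKM) and evm.TU.CM024139.1.80 (1445, 1563 and 1102 FPKM) had ratios of 1.35, 1.22 and 1.23. In these 3 consecutive pairs the ratio between the genes moved by 1.10-fold to 1.19-fold over crabs, less than the genes themselves did.

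Pairs with a gap in the numbers were less even. The 2 abundant genes evm.TU.CM024158.1.108 and evm.TU.CM024158.1.110 shared the order of crabs, with ratios of 0.457, 0.569 and 0.656. On CM024154.1 the joined model and evm.TU.CM024154.1.291 had ratios of 0.340, 0.537 and 0.536. The members evm.TU.CM024121.1.260 and evm.TU.CM024121.1.263 (1159, 1027 and 487 FPKM) had ratios of 6.24, 9.50 and 13.5. The latter was at 0.668, 1.64 and 1.93 FPKM in pre-molt. The greatest divergence was between evm.TU.CM024138.1.146 and evm.TU.CM024138.1.148, at 11.6, 10.4 and 58.3. In that pair the former was highest and the latter lowest in post-molt replicate 3. Whether the models of a pair are copies or pieces of 1 gene was not tested.

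Before the molt the members of these pairs were all low, as the rule requires. Pre-molt values of evm.TU.CM024143.1.123 were 2.02, 1.92 and 3.47 FPKM, and those of evm.TU.CM024143.1.124 were 1.26, 2.06 and 2.68 FPKM. In evm.TU.CM024156.1.424 they were 0.800, 0.980 and 0.927 FPKM, and in evm.TU.CM024156.1.425 they were 1.73, 1.29 and 1.57 FPKM. For evm.TU.CM024139.1.79 they were 8.07, 5.16 and 7.27 FPKM, the highest among the consecutive pairs, against 3.36, 2.35 and 3.06 FPKM for evm.TU.CM024139.1.80. In evm.TU.CM024138.1.148 the pre-molt values were 4.67, 3.001 and 2.43 FPKM.

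The genes around the members included a larger share called higher in post-molt muscle than predicted genes at large. They were defined by position and by not meeting the rule, and were looked at after the data had been seen. Within 3 order numbers, 86 predicted genes that are not members were tested, of which 22 (25.6%) were called higher by limma and 0 lower. Of all 13136 predicted genes tested outside the 5 chromosomes that are not members, these flanking genes included, 5.56% were called higher and 1.49% lower. At the next number the called genes were 15 of 35 (42.9%), and within 5 numbers 26 of 137 (19.0%). The median log2 fold change of the flanking genes dropped from 0.93 at the next number to 0.34 within 3 and 0.17 within 5, where that of all other genes was −0.09. With TPM the flanking genes within 3 numbers were called higher in 16 (18.6%) and lower in 22 cases (25.6%), beside 2.79% called higher and 36.3% called lower of the 13136 genes. On that scale the log2 fold changes of all genes had a median of −0.78. No chance level was computed for these shares.

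The highest flanking gene was evm.TU.CM024122.1.9, next to the member evm.TU.CM024122.1.10. It measured 62111, 40493 and 22412 FPKM after the molt against 16.1, 22.2 and 30.8 FPKM in pre-molt libraries, and only the ceiling kept it out of the set (limma log2 fold change 10.68). The member beside it was at 822, 761 and 529 FPKM after the molt against 0.130, 0.265 and 0.513 FPKM in pre-molt. Within each stage the 2 genes had the same order of crabs, replicate 1 highest in post-molt and replicate 3 highest in pre-molt. The member is the longest model of the set, with 5123 bases.

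Around evm.TU.CM024153.1.208, 4 flanking genes within 3 numbers were called higher. The next gene, evm.TU.CM024153.1.209, was more abundant than the member itself, at 19337, 18821 and 11050.2 FPKM after the molt against 41.6, 59.3 and 52.6 FPKM in pre-molt libraries (limma log2 fold change 8.27). The others, evm.TU.CM024153.1.207, evm.TU.CM024153.1.210 and evm.TU.CM024153.1.211, had log2 fold changes of 3.30, 4.35 and 4.83. All 4 were above 20 FPKM in at least 1 pre-molt library.

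In several other stretches, flanking genes missed the post-molt floor instead, and examples follow from CM024156.1 and CM024142.1. Beside the pair on CM024156.1, evm.TU.CM024156.1.426 was at 365, 364 and 178 FPKM after the molt against 0.984, 1.97 and 1.06 FPKM in pre-molt (log2 fold change 6.97). Near evm.TU.CM024142.1.394, evm.TU.CM024142.1.393 was at 119, 97.9 and 223 FPKM in post-molt with no fragment in any pre-molt library, and evm.TU.CM024142.1.397 was at 255, 409.5 and 85.9 FPKM after the molt against 0, 0 and 0.432 FPKM in pre-molt. The 2 flanking genes differed in their order of crabs, as the former was highest and the latter lowest in post-molt replicate 3.

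Other members had no such neighbour. The nearest tested gene to evm.TU.CM024156.1.378, at the next number, was at 1.31 FPKM after the molt against 0.0469 FPKM in pre-molt and was not called (adjusted p = 0.31 by limma). Beside evm.TU.CM024158.1.110 the joined model evm.TU.CM024158.1.111_evm.TU.CM024158.1.112 was at 19.7 and 17.4 FPKM, with a log2 fold change of 0.22. Next to evm.TU.CM024097.1.36, evm.TU.CM024097.1.37 was at 1173 FPKM after the molt against 1090.2 FPKM in pre-molt. Of the 34 members, 18 had a flanking gene within 3 numbers that was called higher, and 16 had none. The matching share for predicted genes at large was not computed, so these counts have no background.

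**Figure D5:**
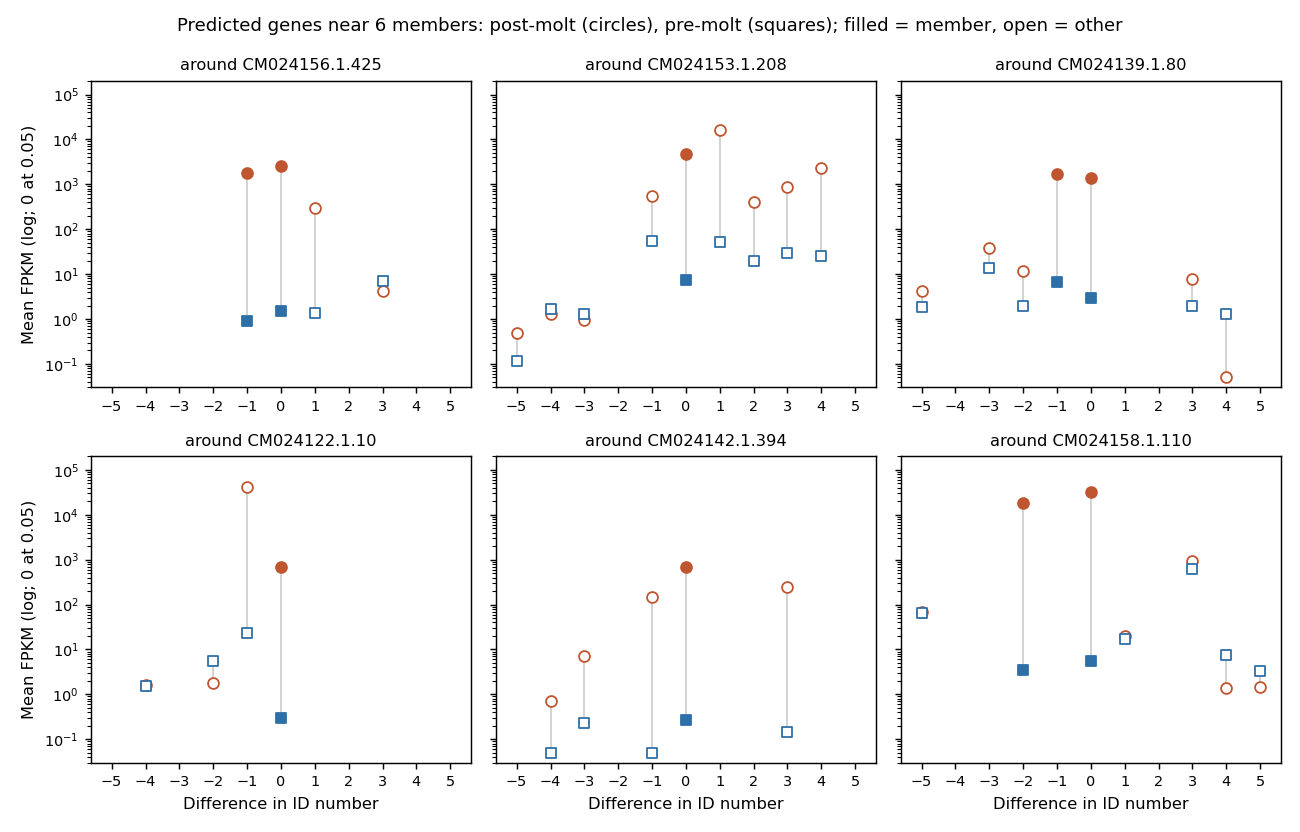
Mean FPKM (y axis, log scale, zeros drawn at 0.05) in post-molt (circles) and pre-molt (squares) muscle of predicted genes up to 5 order numbers (x axis) from 6 members, with members filled and other listed genes open. Around CM024153.1.208 the open circles from 1 number before to 4 after the member stand above their squares, while the gene at the next number after CM024158.1.110 has 19.7 and 17.4 FPKM in the 2 stages.

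Gene models of the members were shorter than those of other predicted genes in the authors' comparison table. The median length was 1018 bases (quartiles 746 and 1725) for the 34 members and 1386 bases (quartiles 750 and 2463) for the other 1397. This is a description, since FPKM itself depends on length.

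Some members belong to the lists of the study that hold genes changed in both expression and chromatin accessibility between neighbouring stages. In any list there were 11 of the 34 members (32.4%), beside 5.68% of the 13853 predicted genes. The list of genes that rise between pre-molt and the molt itself held 8 members (23.5%), beside 2.09% of the 13853 predicted genes. They made up 2.45% of that list. The list of genes falling from post-molt to inter-molt held 5 members (14.7%), beside 2.82% of the predicted genes. They made up 1.11% of that list. The genes evm.TU.CM024121.1.260 and evm.TU.CM024107.1.208 were in both lists. The other 6 lists, of 5 to 164 genes each, held 0 members. Each of these 6 lists held only 0.0289% to 1.05% of the predicted genes. These lists were made partly from the same libraries, so the memberships are not independent of the rule. Chromatin accessibility was not analysed here.

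The members in the list of genes that rise towards the molt were, from the highest post-molt level, evm.TU.CM024156.1.378, evm.TU.CM024154.1.291, evm.TU.CM024121.1.260, evm.TU.CM024107.1.208, evm.TU.CM024107.1.249, evm.TU.CM024132.1.241, evm.TU.CM024143.1.124 and the joined model on CM024116.1. In the list falling after post-molt, evm.TU.CM024139.1.80, evm.TU.CM024097.1.36 and evm.TU.CM024149.1.121 stood beside the 2 shared genes. The study names evm.TU.CM024097.1.36 among the genes of the G protein-coupled receptor signaling pathway, a family of relays from membrane receptors to the cell interior, but without receptor activity in its annotation. It was at 909, 585 and 406 FPKM after the molt against 0.188, 0.230 and 0.513 FPKM in pre-molt, from 1, 1 and 3 fragments. No other member is described by function in the text of the study.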

How the data were processed

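Per the submitters' notes, fragments were aligned with HISAT2 2.0.5 to an E. sinensis genome and counted per gene with featureCounts 1.5.0-p3. Neither the strand setting nor the naming of the gene predictions is given in the sources used here, so overlapping genes and near-identical copies may share fragments. The authors deposited FPKM for 18729 genes in 6 libraries. For 1684 of these genes the authors also deposited a comparison table, which holds a signal (fragments divided by a size factor per library), gene length, fold changes and p-values. The fold changes and p-values were not used. The FPKM columns carry a prefix other than that of the sample titles. They were assigned by stage letter and replicate number, and matched the columns of the same letter and number in the comparison table by 1 factor per library.

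Whole fragments were recovered from the steps of that signal and from gene length. A deposited length was used for 1684 genes, all 34 members among them. For every other gene the smallest length that made its values whole was taken, which may be a fraction of the true length. Fragments of such genes, and the library totals, may then be too low. All values (100%) came out whole within 0.001, which is no check for genes with such a fitted length. The same search recovered the deposited length exactly for 98.6% of 1684 genes. Recovered fragments per library are given with the samples above, and intervals from them cover counting error only. Any 2 libraries differed with a chi-square of at least 12.5 per degree of freedom, so none was a copy of another.

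All 6 libraries entered 1 limma fit (limma 3.58.1, R 4.3.3) of stage on log2(FPKM + 1), with a variance trend, over the genes whose FPKM averaged at least 0.5. A call needed an adjusted p up to 0.05 (Benjamini-Hochberg method) and a log2 fold change of at least 1. The scripts were tested on simulated data. edgeR 4.0.16 (quasi-likelihood) and DESeq2 1.42.0 on recovered fragments, other pseudocounts, filters, scalings and thresholds, a replicate block, and leaving out each library were the alternatives. Shares have 95% Wilson intervals, and counting intervals of ratios are Poisson intervals of the pre-molt fragments.

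The members and lists were chosen with earlier results of these data known. Genes named with values in every library were the 15 most abundant members and the members in the lists of the study. All members within 3 order numbers of another were named likewise, as were the 5 largest and 5 smallest log2 fold changes and coefficients of variation. The 3 genes on each side of each threshold were also named, those outside it with only some of their values. Other members and the flanking genes were chosen after their values were seen. Of the IDs, 0 matched the reference gene table, and no sequence is shown.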

Additional observations from a re-analysis of the deposited data

How the results depend on the processing

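The membership depended on the thresholds and on the scale. The rule gave 34 genes as deposited, 19 with TPM, 29 with a ceiling of 10 FPKM, 49 with a ceiling of 40, 58 with a floor of 150, 22 with a floor of 600 and 56 with group means. Leaving out 1 library gave 35 to 43 genes, the most without post-molt replicate 3. The share of FPKM in post-molt was 7.45% of predicted genes only and 7.41% by fragments, and 6.88% to 7.26% with 1 crab left out. Neighbours numbered 6 members by consecutive ID, and 14 within 3 numbers, 14 within 10 and 14 among listed genes. The median log2 fold change of the members was 10.33 with a pseudocount of 0.1, 7.97 with 5, 7.53 with TPM, 8.62 with quantile normalization, 9.95 with edgeR, 10.001 with DESeq2 and 8.96 to 9.28 with 1 library left out. Genes called higher numbered 1036 as reported, 601 with TPM (5889 lower, against 280), 1534 with edgeR, and 675 to 1089 with 1 library left out, the fewest without pre-molt replicate 1. The median coefficient of variation was 41.6% with TPM and 23.4% to 41.3% with 1 crab left out, the least without post-molt replicate 3. Flanking genes called higher within 3 numbers were 16 to 27, an alternative set chosen after seeing the data. The cause of these changes was not tested.

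Same-numbered libraries of the stages did not deviate together (correlations −0.03, −0.03 and −0.05), so the numbers do not pair the samples. With the replicate number as a block, 843 genes were called higher, 828 of them also without it, and the median log2 fold change of the members was 9.07.

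Depth limits the pre-molt side. Members had 2 to 431 pre-molt fragments in all, so ratios of the lowest are known only within their counting intervals.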

Other observations

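Besides the 34 members and the 28 predicted genes on the 5 chromosomes left out, 9 gene models outside the predicted set met both thresholds. Of the 343 predicted genes outside the 5 chromosomes that were at 300 FPKM or more in every post-molt library, 230 were at that level in every pre-molt library too.

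Across the 34 members, the mean post-molt and pre-molt levels were related, with a Spearman rho of 0.60. This is a description over genes that share the same 6 libraries and were chosen by both levels, and genes are not independent replicates.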
